A study of Mus musculus with 4 samples.

Results

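The 6 genes followed here belong to the fibroblast growth factor (FGF) system and were measured across the cells of the fetal mouse hindlimb: the 4 receptors Fgfr1, Fgfr2, Fgfr3 and Fgfr4, and the ligands Fgf9 and Fgf18. They were listed by symbol, with earlier results of these data known, and make up 6 of the 32288 genes in the count tables. The tissue came from E14.5 embryos (E, embryonic day). All embryos carried Gli1CreER/+, R26LSL-tdTom/+ and TigreTRE-p21/+, and those of the Pan-Cart-p21MOE group (p21 group hereafter) also carried Col2a1-rtTA, so that doxycycline switched on the cell-cycle inhibitor p21 in a mosaic of cartilage cells. Control embryos lacked Col2a1-rtTA and received the same treatments. Doxycycline was given from E12.5, both in food and in water sweetened with 0.5% sucrose (1 mg/ml), and tamoxifen was given once at E13.5 at 120 µg/g to label cells then expressing Gli1, and their progeny, with tdTomato. Hindlimb tissue was digested, sorted into tdTomato-positive (tdT+) and tdTomato-negative (tdT−) cells, and sequenced in 4 single-cell libraries, 1 of each fraction in each of 2 collections.

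Each library joined p21 cells of one sex with control cells of the other, so condition was read here from the sex-linked transcripts of each cell. The p21 embryos were male in collection 1 and female in collection 2, so that sex and condition were crossed over the collections but were the same thing inside any library. The tdT+ and tdT− libraries of a collection held cells of the same embryo pools. Each condition therefore rests on 2 pools of embryos, and p-values over 4 pseudobulks against 4 (a pseudobulk is the summed counts of the cells of 1 class, library and condition) are too small to that extent. Comparison of p21 with control asked whether arresting part of the cartilage went with a different supply of FGF ligand or receptor transcripts in cartilage or around it. Comparison of tdT+ with tdT− asked the same of the Gli1-lineage.

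FGF receptors are tyrosine kinases of the cell surface that need both a secreted FGF and heparan sulfate to dimerise and to signal, chiefly through the Ras-MAPK cascade. In the growing skeleton Fgfr3 is best known as a brake on chondrocyte proliferation, and activating mutations of it cause achondroplasia. Fgf9 and Fgf18 are the ligands with the strongest known roles in cartilage, and Fgf18 is made largely by the perichondrium. Fgfr1 and Fgfr2 are both used by mesenchymal and osteoblast-lineage cells, and Fgfr4 by embryonic muscle.

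In the GRCm38 annotation (GENCODE M21), Fgfr1 (ENSMUSG00000031565) lies at chr8:25513654-25575718 on the plus strand and Fgfr2 (ENSMUSG00000030849) at chr7:130162451-133123350 on the minus strand. Fgfr3 (ENSMUSG00000054252) lies at chr5:33721674-33737068 and Fgfr4 (ENSMUSG00000005320) at chr13:55152640-55168759, both on the plus strand. Fgf9 (ENSMUSG00000021974) lies at chr14:58070547-58112720 on the plus strand and Fgf18 (ENSMUSG00000057967) at chr11:33117430-33147400 on the minus strand. The annotated span of Fgfr2 overlaps 48 other genes of the tables, 22 of them on the same strand. Fgfr1 overlaps 1 gene on the opposite strand, and the other 4 members overlap none. The unit counted is a unique molecular identifier (UMI) read from the 3′ end of a transcript, so a level here covers all isoforms of a gene, and the b and c splice forms of the receptors were not separated.

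The 4 libraries held 2541 to 6455 barcodes and 11945062 to 39435830 UMIs. After filters on depth, mitochondrial share, doublets and sex, 2694 of 18955 barcodes remained, 208 to 275 control cells and 90 to 773 p21 cells a library, with a median of 15319.5 to 26919 UMIs a cell. Libraries shared 3 to 12 barcodes a pair, and at most 1 shared barcode a pair was kept. Of the 21 clusters, formed with the FGF genes left out, 10 were named from their markers and the others are given by number. Cluster 14 was shallow, with a median of 3157 UMIs a cell, and clusters 18 to 21 came mostly from the tdT− library of collection 2. Clusters 14 and 18 to 21 each gave 1 pseudobulk of 10 or more cells, in every case a p21 one. The muscle-like and osteoprogenitor-like classes likewise gave p21 pseudobulks only. Clusters 14, 18, 20 and 21 matched chondrocyte markers best but stayed unnamed, so the chondrocyte comparisons leave their cells out. Col2a1, the main cartilage collagen, read 6030 to 7530 CPM (UMIs of a gene per 1e6 UMIs) in the chondrocyte-like pseudobulks and 284 to 515 CPM in the perichondrium-like ones. WPRE, a sequence carried by transcripts of the p21 transgene and of the tdTomato one too, read 1208, 1880, 1142 and 1326 CPM in p21 chondrocyte-like cells against 692, 496, 109 and 69.1 CPM in controls, every p21 value above every control (tdT+ 1, tdT+ 2, tdT− 1 and tdT− 2). The log2 difference was 2.55 (adjusted p = 0.028, or 0.084 with the library as a block), the test was passed under 11 of 20 alternatives, and the controls were not free of WPRE, reading higher in tdT+ than in tdT− cells. Cdkn1a, the p21 gene itself, read 53.5 to 71.5 CPM in p21 and 22.6 to 97.0 CPM in control chondrocyte-like cells and did not pass the test. Cluster 18, led by Cdkn1a, lay outside this class. The paper states that, with 3′-biased reads, those of the p21 transgene fall mostly on WPRE. The Cdkn1a counts are therefore a poor measure of the transgene.

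Fgfr3 followed the order of the cartilage zones in its class means. In hypertrophic-like cells, led by Col10a1, Spp1 and Ihh, its level was 223 and 210 CPM in the control pseudobulks with enough cells (both tdT−) and 316 and 184 CPM in the p21 pseudobulks (tdT+ 2 and tdT− 2), a mean of 233.6 ± 57.6 CPM (SD, n = 4). Proliferative-like cells gave 120 to 182 CPM with a median of 140.3 (145 ± 23.0, SD, n = 8), and resting-like cells 40.4 to 83.8 CPM with a median of 60.9 (60.8 ± 13.53, SD, n = 8). The ranges of these 3 zones did not overlap, although the lowest hypertrophic-like value (184 CPM) almost met the highest proliferative-like one (182 CPM). Levels set across classes share 1 scaling by trimmed mean of M values (TMM) over all classes, while levels within a p21 or fraction comparison were scaled within that comparison, so the same pseudobulk can read differently in each, and values of the 2 kinds are not compared. Perichondrium-like cells gave 7.0 to 20.5 CPM (13.7 ± 5.72, SD, n = 7), below every resting-like pseudobulk, and interzone-like cells, the future joint, 13.3 ± 11.1 CPM (SD, n = 6), which did not differ from the perichondrium-like level beyond the spread. Tenocyte-like cells were lowest of the named classes at 3.19 ± 2.87 CPM (SD, n = 3).

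The step between hypertrophic-like and proliferative-like cells depended on how cells were weighted, while the step from resting-like to proliferative-like did not. With each cell weighted equally the hypertrophic-like and proliferative-like levels of Fgfr3 were 152 and 135 CPM, against 56.7 CPM in resting-like cells. After thinning each cell to 5000 UMIs, 39.5% of hypertrophic-like, 44.1% of proliferative-like and 20.5% of resting-like cells held an Fgfr3 UMI, against 5.46% of perichondrium-like and 1.79% of tenocyte-like cells. Before thinning the shares were 67.3, 74.7, 57.9, 27.6 and 8.62%, at median depths of 15870.5 UMIs in hypertrophic-like and 21148.5 UMIs in resting-like cells. Thinning left out 17 hypertrophic-like, 39 proliferative-like and 11 resting-like cells that were too shallow. The proliferative-like class itself held 3 clusters with unlike Fgfr3 levels over their summed cells, 218 CPM in cluster 10, 119 CPM in cluster 1 and 85.4 CPM in cluster 6. On the same measure hypertrophic-like cells read 205 CPM, below cluster 10, and resting-like cells 55.9 CPM.

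**Figure D1:**
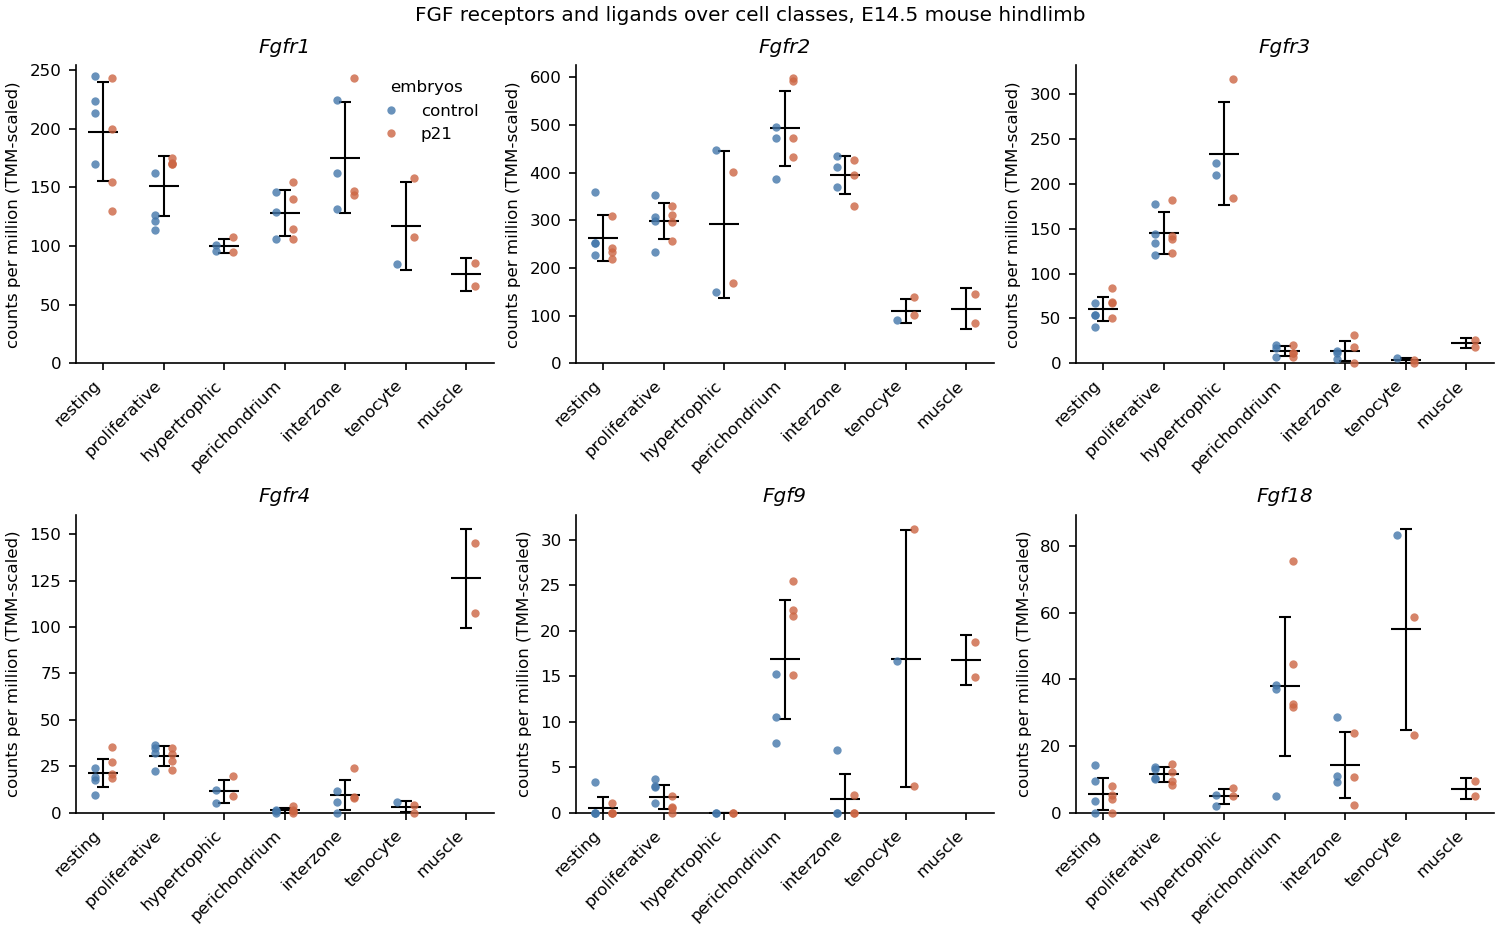
Level of each of the 6 genes (CPM, each panel with its own axis) by named cell class; points are pseudobulks of 1 library and condition with 10 or more cells, coloured by condition, with the mean (horizontal line) and SD (error bars). Osteoprogenitor-like cells are not shown. Fgfr3 steps up from 60.8 CPM in resting-like to 145 CPM in proliferative-like cells, Fgfr4 is highest in the muscle-like pseudobulks, and Fgf9 and Fgf18 are highest in tenocyte-like and perichondrium-like cells among others.

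Fgfr2 was highest in perichondrium-like cells. Its level in perichondrium-like cells was 386 to 599 CPM with a median of 473 CPM (493.2 ± 78.8, SD, n = 7). Interzone-like cells gave 395 ± 39.5 CPM (SD, n = 6), a range overlapping that of the perichondrium-like cells. The 3 cartilage zones could not be ordered, with 298 ± 38.0 CPM in proliferative-like (SD, n = 8), 291 ± 154 CPM in hypertrophic-like (SD, n = 4) and 262 ± 48.3 CPM in resting-like cells (SD, n = 8). Tenocyte-like cells (110 ± 24.9 CPM, SD, n = 3) and muscle-like cells (115 ± 43.2 CPM, SD, n = 2) were lowest, and did not differ from each other beyond their spread. The 1 osteoprogenitor-like pseudobulk read 367 CPM. At a finer clustering the interzone-like class was highest instead, in a ranking that left out the osteoprogenitor-like class. In that clustering 123 cells led by Alpl, Maf and Runx2, leading genes also of the perichondrium-like class, were named osteoprogenitor-like.

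Fgfr1 was read in every named class. It read 130 to 245 CPM in resting-like cells with a median of 207 CPM (197 ± 42.2, SD, n = 8), 114 to 175 CPM in proliferative-like cells with a median of 166 CPM (151 ± 25.9, SD, n = 8) and 94.7 to 108 CPM in hypertrophic-like cells (100.0 ± 6.07, SD, n = 4). The hypertrophic-like range lay below every resting-like and every proliferative-like pseudobulk, while the resting-like and proliferative-like ranges overlapped. Interzone-like cells (175 ± 46.9 CPM, SD, n = 6) overlapped the resting-like cells, and were above them when each cell was weighted equally. Perichondrium-like cells gave 128 ± 19.8 CPM (SD, n = 7), and muscle-like cells the lowest level of the named classes, 75.7 ± 14.4 CPM (SD, n = 2). From resting-like to hypertrophic-like cells Fgfr1 thus ran down where Fgfr3 ran up. The middle step rests on the mix of the proliferative-like clusters. Over summed cells, Fgfr1 read 203 CPM in cluster 1, 99.7 CPM in cluster 10 and 81.3 CPM in cluster 6. On the same measure it read 195 CPM in resting-like and 82.1 CPM in hypertrophic-like cells.

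Fgfr4 marked muscle. The muscle-like pseudobulks read 107 and 145 CPM (157 UMIs in 50 cells), above every pseudobulk of the other named classes. Both were p21 pseudobulks, as the class held 44 p21 and 6 control cells, so no control level was read. In cartilage Fgfr4 read lower, at 30.5 ± 5.36 CPM in proliferative-like cells (SD, n = 8), 21.5 ± 7.5 CPM in resting-like cells (SD, n = 8) and 11.5 ± 6.23 CPM in hypertrophic-like cells (SD, n = 4). Barcodes under 1000 UMIs read 7.57 CPM, and the hypertrophic-like level was not above this beyond its spread. In perichondrium-like cells 10 Fgfr4 UMIs were counted in 294 cells, 1.15 ± 1.18 CPM (SD, n = 7). At 5000 UMIs a cell, 36.2% of muscle-like, 13.52% of proliferative-like and 1.02% of perichondrium-like cells held an Fgfr4 UMI.

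Both ligands were highest in tenocyte-like, perichondrium-like and some other non-cartilage cells, though not in all of those. Fgf18 read 83.2, 23.3 and 58.8 CPM in the 3 tenocyte-like pseudobulks and 5.11 to 75.5 CPM in perichondrium-like cells with a median of 37.1 CPM (37.9 ± 20.8, SD, n = 7). These ranges overlap, and the 1 osteoprogenitor-like pseudobulk, at 35.6 CPM, and the unnamed mesenchymal cluster 3, at 28.1 ± 10.3 CPM, fell within them. Cartilage was lower, at 11.5 ± 2.19 CPM in proliferative-like (SD, n = 8), 5.61 ± 4.89 CPM in resting-like (SD, n = 8) and 4.94 ± 2.25 CPM in hypertrophic-like cells (SD, n = 4), and muscle-like cells, at 7.16 CPM, were no higher than proliferative-like ones. Barcodes under 1000 UMIs read 6.21 CPM of Fgf18, and the resting-like and hypertrophic-like levels were not above this. At 5000 UMIs a cell the shares with an Fgf18 UMI were 17.9% in tenocyte-like, 15.02% in perichondrium-like, 3.41% in resting-like, 3.38% in proliferative-like and 1.23% in hypertrophic-like cells.

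Fgf9 was also low in cartilage. Its level was 16.9 ± 14.1 CPM in tenocyte-like (SD, n = 3), 16.8 ± 2.74 CPM in muscle-like (SD, n = 2) and 16.8 ± 6.54 CPM in perichondrium-like cells (SD, n = 7), which cannot be ordered. In perichondrium-like cells this was 7.67 to 25.5 CPM over 150 UMIs. Interzone-like cells gave 1.47 CPM on average, and no Fgf9 UMI was counted in 52 osteoprogenitor-like cells. Proliferative-like cells gave 1.67 ± 1.33 CPM (SD, n = 8) and resting-like cells 0.555 ± 1.21 CPM (SD, n = 8). No Fgf9 UMI was counted in the 98 hypertrophic-like cells, which allows a level of up to 1.03 CPM (3 counts of the class total). Intervals and such limits cover counting error only.

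Set against each other within a pseudobulk, the 4 receptors were mixed differently over the cartilage zones. Fgfr3 made up 11.4 ± 3.34% of receptor UMIs in resting-like, 23.2 ± 2.77% in proliferative-like and 37.7 ± 6.68% in hypertrophic-like cells (SD over pseudobulks), while Fgfr1 went from 36.4 ± 7.17 to 24.2 ± 3.28 and 17.0 ± 5.67%. Fgfr2 stayed between 43.4 and 48.2% on average over the 3 zones. In perichondrium-like cells Fgfr2 made up 77.4 ± 2.50% and Fgfr3 2.14 ± 0.795%, close to the 78.3 and 4.35% of the single osteoprogenitor-like pseudobulk. Tenocyte-like cells were divided between Fgfr1 (49.6 ± 3.56%) and Fgfr2 (47.5% on average), and muscle-like cells were the only named class with a large Fgfr4 share, 37.8 ± 11.9%. A share of UMIs is not corrected for how well the 3′ end of each receptor is captured, so these are shares of counts and not of protein.

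**Figure D2:**
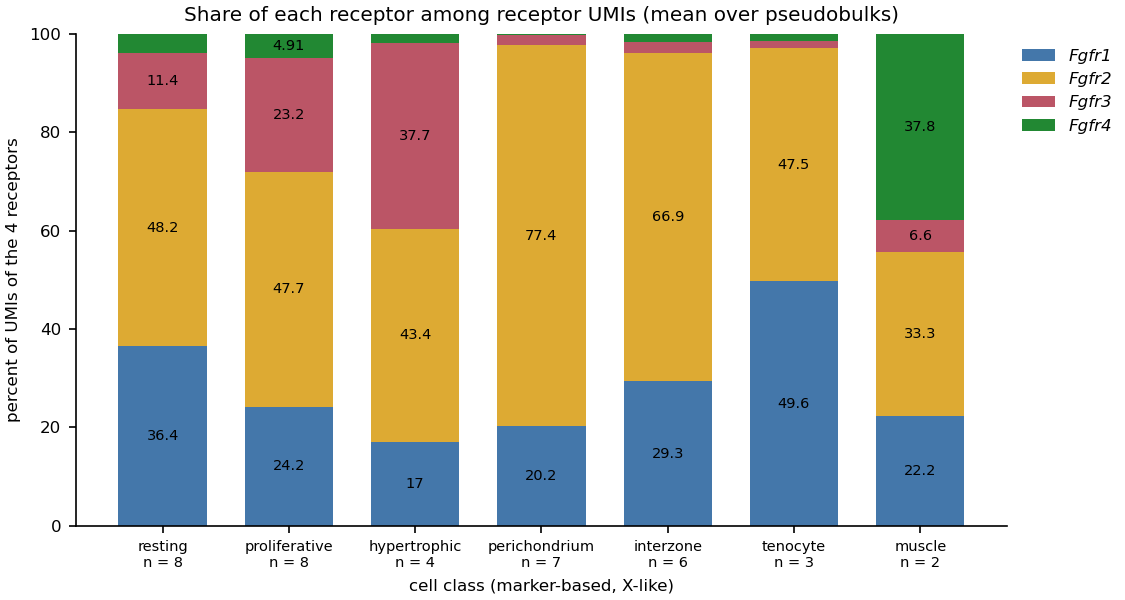
Share of Fgfr1 to Fgfr4 UMIs (% of the 4 together, stacked bars from 0 to 100) in each named class, as the mean over pseudobulks. Osteoprogenitor-like cells are not shown. The Fgfr3 share rises over the cartilage zones from 11.4 to 23.2 and 37.7%, and Fgfr2 takes 77.4% in perichondrium-like cells.

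For each member, the genes whose levels over clusters ran most like its own were found. Over the 21 clusters, Pearson's r of the mean log2(CPM + 10) with Fgfr3 was 0.958 for Ugdh (which makes the UDP-glucuronate of proteoglycan chains), 0.950 for Matn3 (a cartilage matrilin), 0.941 for the ion channel Trpv4, 0.928 for the collagen gene Col9a1 and 0.926 for the sulfate transporter Slc26a2. For Fgfr2 they included Atp8b2 (0.839), Ascc3, Tiam2 and Dab2 (0.810), and for Fgfr1 Tmx4 (0.896), Letm2 (0.873), Nfatc2, Tox and Cry2 (0.855). Letm2 is the next gene beyond the 3′ end of Fgfr1, at chr8:25578490-25597582 on the minus strand. Fgfr4 ran most like Sox8 (0.811), a muscle-progenitor and glial transcription factor, then Prune2, Fhad1, Pag1 and Sytl2 (0.761). Fgf18 ran most like Slc8a1 (0.842), Grm7, Col5a1, Ednra and Ptprs (0.815), and Fgf9 like Fndc5 (0.824), Glipr2, Igfbp3, Crym and Meox1 (0.790).

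Between members, Fgfr3 ran against both ligands, with r = −0.617 for Fgf9 and −0.611 for Fgf18. Fgfr4 ran against Fgf18 to a like degree (−0.612), and the ligands ran together at 0.576. Clusters share libraries and differ in depth, so these values describe the clusters and carry no test.

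In the comparison of p21 with control, no member passed an adjusted p of 0.05 in any class. In chondrocyte-like cells 40 of 11872 genes tested passed (0.337%), 12 higher (0.101%) and 28 lower (0.236%), and 0 of the 5 members tested were among them. The same was true of proliferative-like (23 of 11198 genes, 0.205%), resting-like (3 of 6305, 0.0476%) and perichondrium-like cells (1 of 11053, 0.00905%), of all cells outside the chondrocyte class (1 of 14007, 0.00714%) and of all cells together (6 of 14816, 0.0405%). At shares this low a count of 0 members is no result about the members. At an unadjusted p under 0.05, Fgfr1 passed in chondrocyte-like and in proliferative-like cells and Fgf9 in perichondrium-like cells, where 1117 of 11872, 843 of 11198 and 496 of 11053 genes did so.

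Among the members with enough counts to be tested, which left out Fgf9, Fgfr1 was nearest to a difference inside cartilage. In proliferative-like cells it read 108, 157, 113 and 118 CPM in controls and 168, 159, 169 and 156 CPM in p21 cells (tdT+ 1, tdT+ 2, tdT− 1 and tdT− 2, in this and the following lists). The tdT+ 2 control lay among the p21 values, and the other 3 controls below them all. The log2 difference was 0.39 (SE 0.140, 95% interval 0.09 to 0.70), with an unadjusted p of 0.0146 and an adjusted p of 0.460, and it stayed between 0.31 and 0.57 over the alternatives tried (adjusted p 0.176 to 0.840). Over all chondrocyte-like cells Fgfr1 read 125, 142, 131 and 126 CPM in controls and 150, 157, 140 and 156 CPM in p21 cells, with 1 p21 value below the highest control (log2 difference 0.21, interval 0.003 to 0.42, adjusted p = 0.522). In resting-like cells the direction was the other way, 225, 182, 223 and 249 CPM in controls against 156, 192, 138 and 226 CPM in p21 cells, with overlapping groups (log2 difference −0.25, interval −0.62 to 0.12, adjusted p = 0.852).

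The make-up of the proliferative-like class differed between the conditions, for cluster 1 mainly in the libraries of collection 1. In those of collection 2 the cluster 1 share was close between the conditions, and the tdT− 1 p21 share rests on 14 cells. Cluster 1, in which Fgfr1 was highest (203 CPM over its summed cells, against 99.7 CPM in cluster 10 and 81.3 CPM in cluster 6), held 42.6, 63.9, 36.1 and 41.1% of the control cells of the class and 69.7, 66.9, 57.1 and 42.1% of the p21 cells. Within cluster 1, Fgfr1 was 188 ± 20.5 CPM in controls (SD, n = 4) and 216 ± 23.6 CPM in p21 (SD, n = 3). It was 70.7 ± 19.8 against 95.1 ± 12.1 CPM in cluster 6 and 79.2 ± 19.5 against 114 CPM in cluster 10. The 8 proliferative marker genes, all above 0 in every pseudobulk of the class, summed to 3824, 4366, 3921 and 4882 CPM in controls and 3003, 3479, 2893 and 3756 CPM in p21, with no overlap. The part of this in the Fgfr1 values was not tested.

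Fgfr3, the receptor that sets the zones apart most, did not separate the conditions. Over chondrocyte-like cells it read 115, 129, 109 and 150 CPM in controls and 128, 128, 162 and 149 CPM in p21 cells, with the groups overlapping (log2 difference 0.16, SE 0.118, interval −0.09 to 0.42, adjusted p = 0.713). In proliferative-like cells it read 127, 140, 112 and 165 CPM in controls and 132, 133, 122 and 167 CPM in p21 cells. Here the libraries differed more than the conditions, and the log2 difference was 0.05 (interval −0.28 to 0.38, adjusted p = 0.992). In resting-like cells the values were 56.2, 58.3, 67.2 and 41.1 CPM against 68.3, 49.1, 88.9 and 63.3 CPM (log2 difference 0.20, interval −0.32 to 0.72). For hypertrophic-like cells too few pseudobulks were large enough to test. Side by side, on plain library totals with no TMM scaling, Fgfr3 read 233 and 166 CPM in the controls (tdT− 1 and tdT− 2) and 268 and 171 CPM in p21 (tdT+ 2 and tdT− 2).

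**Figure D3:**
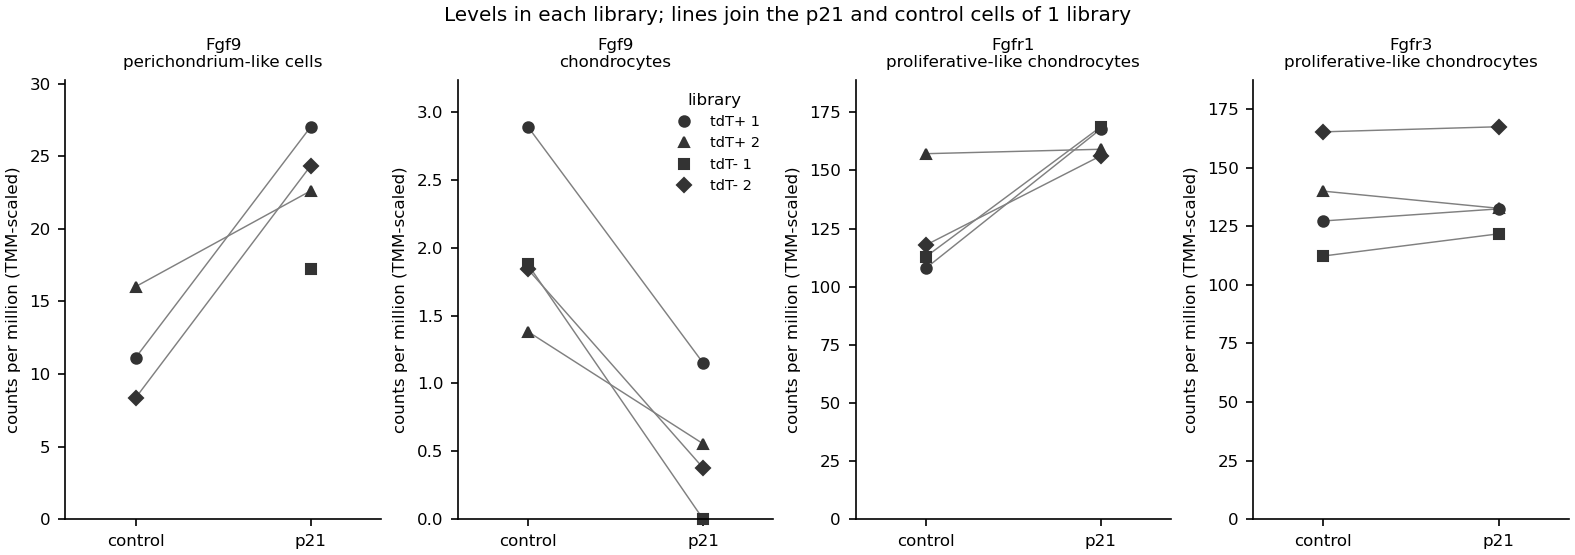
Levels (CPM) by library and condition for Fgf9 in perichondrium-like and chondrocyte-like cells and for Fgfr1 and Fgfr3 in proliferative-like cells, each panel with its own axis from 0; lines join the p21 and control values of the same library. In proliferative-like cells 3 of 4 control Fgfr1 values lie below every p21 value, and in perichondrium-like cells the 4 p21 values of Fgf9 lie above the 3 control values with this scaling, though not under the scaling over all classes (15.1 against 15.3 CPM).

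Fgfr2 and Fgfr4 were close to level in cartilage. Fgfr2 read 281, 318, 236 and 244 CPM in control and 288, 280, 241 and 244 CPM in p21 chondrocyte-like cells (log2 difference −0.03, interval −0.22 to 0.16). Fgfr4 read 20.8, 29.7, 25.5 and 24.6 CPM against 28.2, 21.8, 26.5 and 25.8 CPM (log2 difference 0.01, interval −0.35 to 0.37). Of the ligands, Fgf18 read 10.4, 7.60, 9.01 and 10.7 CPM against 10.9, 7.59, 5.30 and 9.19 CPM (log2 difference −0.16, interval −0.72 to 0.41). Fgf9 was too low for the filter. It was counted 5, 2, 5 and 6 times in control and 2, 3, 0 and 3 times in p21 chondrocyte-like cells, or 2.89, 1.38, 1.88 and 1.84 CPM against 1.15, 0.555, 0 and 0.378 CPM. Every p21 value lay below every control, and with no filter on low counts the log2 difference was −1.88 (adjusted p = 0.440). Barcodes under 1000 UMIs read 4.03, 1.98, 1.74 and 1.83 CPM of Fgf9 in the same libraries. The control values were thus close to or below that level.

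In perichondrium-like cells the Fgf9 values were higher in p21 without passing the test, and those of Fgf18 overlapped. Fgf9 read 11.1, 16.01 and 8.34 CPM in the controls (tdT+ 1, tdT+ 2 and tdT− 2, from 15, 25 and 3 UMIs) and 27.0, 22.6, 17.2 and 24.4 CPM in p21 (49, 41, 4 and 13 UMIs). With this scaling all p21 values lay above all control values, while under the scaling over all classes the ranges met (controls up to 15.3 CPM, p21 from 15.1 CPM). The log2 difference was 0.94 (SE 0.310, interval 0.27 to 1.61, unadjusted p 0.0099, adjusted p = 1.00). It ranged from 0.78 to 1.20 over the alternatives, with an adjusted p of at least 0.570. The direction was the opposite of that in chondrocyte-like cells, where the control values were close to or below those of barcodes under 1000 UMIs. This difference between the classes was not tested, and the tdT− values in perichondrium-like cells rest on 3, 4 and 13 UMIs. Fgf18 read 39.3, 40.3 and 5.56 CPM in the controls and 33.6, 46.9, 86.1 and 35.6 CPM in p21, and the groups overlapped (log2 difference 0.45, interval −0.41 to 1.30, adjusted p = 1.00). The Fgf18 difference turned to −0.34 at the finer clustering and −0.051 with stricter sex calls, and was 0.016 without the control tdT− 2 pseudobulk. Fgfr2, with the largest receptor share in these cells, read 408, 521 and 515 CPM against 458, 495, 676 and 656 CPM (log2 difference 0.16, interval −0.17 to 0.48), and Fgfr1 136, 111 and 159 CPM against 112, 120, 176 and 154 CPM (log2 difference −0.05, interval −0.39 to 0.30).

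Marker sums of neighbouring cell types in the same perichondrium-like pseudobulks overlapped between the conditions. The 6 tenocyte markers summed to 129, 198 and 197 CPM in controls and 193, 178, 319 and 264 CPM in p21, with Kera at 0 in every pseudobulk. The 7 muscle markers summed to 2.65 to 7.18 CPM over all pseudobulks, with Myod1, Myf5 and Pax7 at 0 in each, and the class's own 6 markers to 1586 to 2243 CPM in controls and 1845 to 2101 CPM in p21. The class's leading genes, Epha3, Erc2, Runx2 and Alpl among them, include osteoprogenitor markers, and the 7 genes of that list summed to 1543 to 1680 CPM in controls and 1541 to 1902 CPM in p21. The 6 interzone markers summed to 62.0, 79.2 and 97.2 CPM in controls and 126, 100, 66.3 and 158 CPM in p21. The 11 chondrocyte markers summed to 1517 to 2455 CPM in controls and 1774 to 2297 CPM in p21. The part of cell make-up in the Fgf9 values was not tested.

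Over all cells outside the chondrocyte class, log2 differences of p21 from control were small and their intervals held 0: 0.05 for Fgfr1 and for Fgfr2, 0.31 for Fgfr3 (interval −0.26 to 0.89), 0.29 for Fgfr4 (interval −0.21 to 0.80), −0.12 for Fgf9 and −0.02 for Fgf18. The Fgfr3 value was 0.074 without the p21 tdT+ 2 pseudobulk and 0.073 without clusters 14 and 18 to 21, and the Fgfr4 value −0.069 without the tenocyte-like and muscle-like clusters, where the muscle-like class held 44 p21 and 6 control cells. The set also holds the unnamed clusters 4, 14, 18, 20 and 21, whose markers matched chondrocytes best. In these bulk sums, fewer cells of a type and less transcript in each cell cannot be told apart. The receptor shares, which do not depend on library size, passed no test either. In chondrocyte-like cells Fgfr1 held 25.9 ± 1.21% of receptor UMIs in p21 and 23.9 ± 1.51% in controls (SD, n = 4 each; 2-sided exact permutation p = 0.0857, where 0.0286 is the smallest this design allows). Fgfr2 held 45.2 ± 3.28 against 48.8 ± 3.41% (exact p = 0.171) and Fgfr3 24.4 ± 3.28 against 22.8 ± 3.14% (exact p = 0.486). In perichondrium-like cells Fgfr2 held 78.5 ± 0.141% in p21 (n = 4) and 76.0 ± 3.60% in controls (n = 3; exact p = 0.286, smallest possible 0.0571). Over the 8 share tests the adjusted exact p was 0.555 to 0.6.

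**Figure D4:**
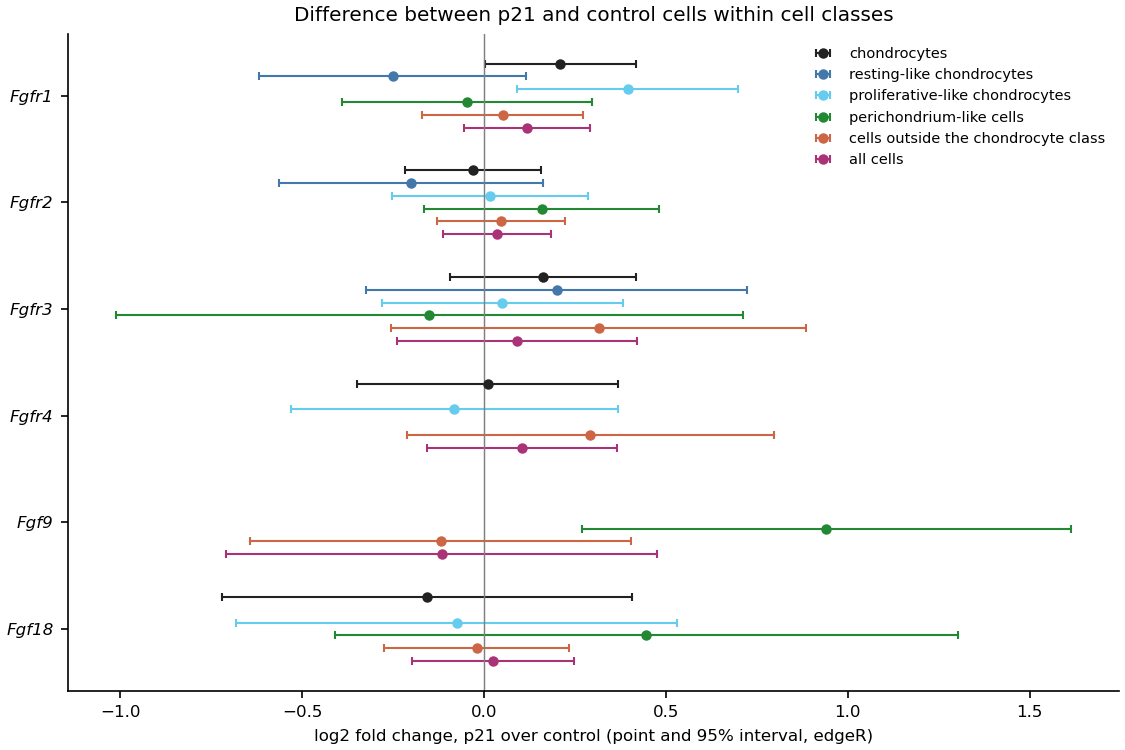
Log2 difference of p21 from control for each member in each class tested, with its 95% interval from edgeR's quasi-likelihood fit; the vertical line marks no difference. Intervals include 0, the exceptions being Fgfr1 in chondrocyte-like and proliferative-like cells and Fgf9 in perichondrium-like cells, none past the adjusted threshold.

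Around the receptors, 85 further genes were followed in lists of other ligands, coreceptors, feedback targets, signal transducers and heparan sulfate genes. In chondrocyte-like cells 68 of the 91 genes, members included, were tested, and 1 passed, in the higher direction. It was Fgf13, an intracellular FGF homologous factor that modulates sodium channels and microtubules and does not signal through the receptors. Fgf13 read 12.7, 11.8, 20.3 and 19.3 CPM in controls and 38.6, 23.5, 53.0 and 41.0 CPM in p21, with every p21 value above every control (log2 difference 1.22, SE 0.19, interval 0.81 to 1.64, adjusted p = 0.028). It passed under 9 of 20 alternatives. The adjusted p was 0.152 with the embryo pools summed, 0.106 with stricter sex calls, and 0.058 to 0.081 when the control tdT+ 1, control tdT+ 2, control tdT− 2, p21 tdT+ 2, p21 tdT− 1 or p21 tdT− 2 pseudobulk was left out. In proliferative-like cells alone Fgf13 read 13.8, 15.2, 17.4 and 14.9 CPM in controls against 2.60, 10.8, 38.7 and 24.8 CPM in p21, the tdT+ values lying below all controls and the tdT− values above them.

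Feedback targets, mostly genes that MAPK signalling switches on and that in turn damp it, had a lower median in chondrocyte-like cells than the other lists outside the members. Of its 10 tested members 7 had a negative difference, and the list's median was −0.13 on the log2 scale, against −0.011 over all genes, of which 48.0% were positive. Dusp6, an ERK phosphatase and a standard readout of FGF signalling, read 47.4, 28.3, 38.3 and 31.9 CPM in controls and 23.0, 15.4, 35.8 and 20.6 CPM in p21. All but 1 of the p21 values lay below all controls (log2 difference −0.77, SE 0.234, adjusted p = 0.245). Its difference was −0.98 in proliferative-like cells (adjusted p = 0.428) and −0.58 in resting-like cells (adjusted p = 0.654). It was past the threshold without the filter on low counts (adjusted p = 0.0070) and under no other alternative. Spred2, an inhibitor of Ras-MAPK signalling, gave −0.47 (adjusted p = 0.384), Frs2, the adaptor that docks on activated receptors, −0.49 (adjusted p = 0.405), and Flrt1, a transmembrane partner of the receptors, 1.05 (adjusted p = 0.270).

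In resting-like cells 43 listed genes were tested, 32 had a negative difference and none passed. Over all genes tested there, 3203 of 6305 were negative and 49.2% positive. The feedback targets in resting-like cells had a median of −0.45, with 6 of 7 negative, against −0.0066 over all genes. Etv5, an ETS factor induced by FGF signalling, read 90.0, 146, 140 and 167 CPM in controls and 84.6, 94.2, 75.6 and 87.2 CPM in p21 (log2 difference −0.64, adjusted p = 0.455). The p21 values were tight, and 1 control fell among them. Lower values were also read for the glypican Gpc6 (−0.52, adjusted p = 0.295), for perlecan, Hspg2 (−0.74, adjusted p = 0.417), and for the receptor partner Flrt2 (−0.66).

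**Figure D5:**
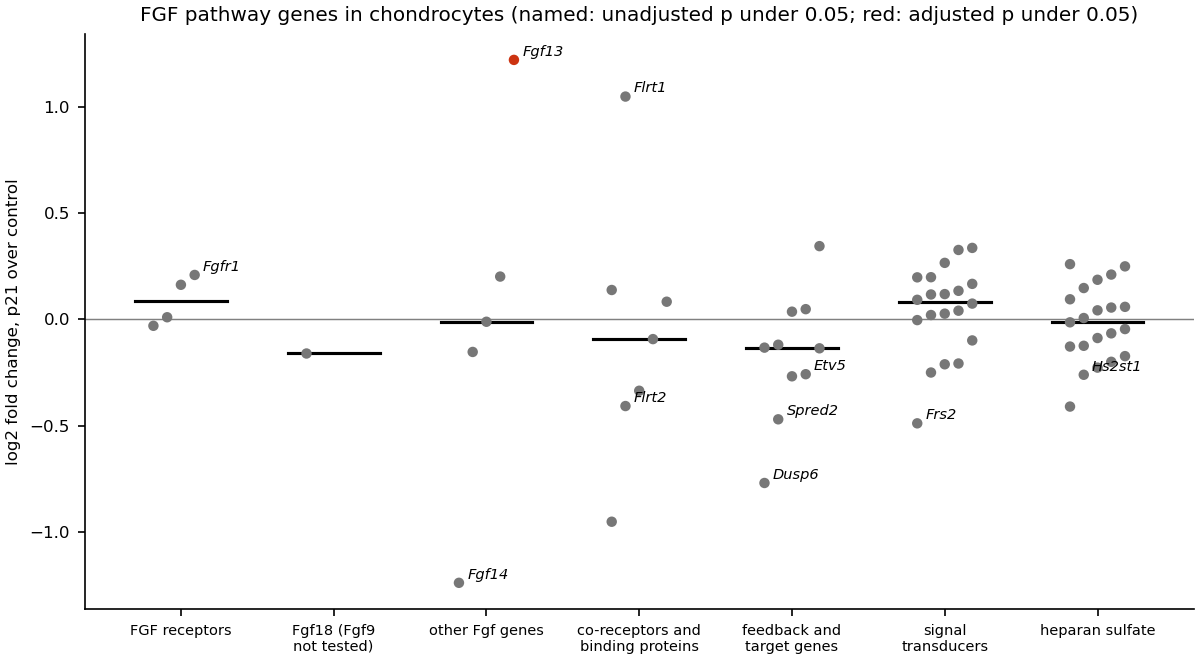
Log2 difference of p21 from control in chondrocyte-like cells for the tested genes of each FGF list; each point is a gene, horizontal bars mark list medians, red marks an adjusted p under 0.05 and names mark an unadjusted p under 0.05. Fgf13 at 1.22 is the single gene past the adjusted threshold, and the feedback targets have a median of −0.13.

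Perichondrium-like cells gave the opposite sign for feedback targets, 9 of 10 positive with a median of 0.15, against 0.0094 over all genes, of which 51.7% were positive. None of the 69 listed genes tested there passed. The lowest unadjusted p-values belonged to the adaptor Gab1 (log2 difference 0.58), the limb-bud ligand Fgf10 (−1.50), Etv1 (0.62), Fgf2 (0.93) and the glypican Gpc5 (1.55), all with an adjusted p of 1.00. The Gpc5 difference turned to −0.18 at the finer clustering and −0.12 with no Scrublet removal. Fgf2 read 13.3, 14.1 and 2.78 CPM in controls and 22.1, 20.96, 21.5 and 24.4 CPM in p21. The Fgf2 ranges did not meet. Fgf10 read 28.2, 16.01 and 2.78 CPM in controls and 7.72, 5.52, 8.61 and 1.87 CPM in p21, where the third control overlapped them. Whether p21 changed these genes differently in perichondrium-like and resting-like cells was not tested. Over all cells outside the chondrocyte class the lowest p-values belonged to Gab1 (0.34, adjusted p = 0.548), Fgf14 (0.79), Spry2 (0.26), Spred2 (−0.23) and Flrt2 (−0.39). Over all cells they belonged to Fgf13 (0.40, adjusted p = 0.483), Dusp6 (−0.24), Etv5 (−0.25), the phosphatase Dusp4 (0.66) and Flrt2 (−0.29). In proliferative-like cells they belonged, beside Dusp6, to Frs2 (−0.67, adjusted p = 0.303), Flrt1 (0.96), the heparan sulfate sulfotransferase Hs2st1 (−0.37) and Spred2 (−0.50).

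Gli1-lineage cells were compared with the other cells of the same class. In chondrocyte-like cells 2 of 11872 genes passed between tdT+ and tdT− (0.0168%), and no member was one of them. Fgfr2 came nearest, with a log2 difference of 0.27 (interval 0.08 to 0.46, adjusted p = 0.994). In the test of whether the p21 difference depended on the fraction, 0 of 12416 genes passed by edgeR (0.0%), 262 at an unadjusted p under 0.05 and 1 by DESeq2, and for the members the interaction term lay between −0.18 and 0.24. Of the listed genes, the lowest p-values for the fraction in these cells were those of Gpc5 (1.35, adjusted p = 0.590), Fgf13 (−0.63), Etv5 (0.24), the kinase Braf (−0.29) and the sulfotransferase Hs6st1 (−0.48). For the interaction they were those of Fgf12 (1.07), Braf (0.58), Spred2 (−0.63), Sulf1 (−0.46) and the syndecan Sdc3 (−0.40), each with an adjusted p of 1.00.

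Among the cells outside the chondrocyte class were unnamed clusters whose markers matched chondrocytes best. The best match was proliferative for clusters 14, 20 and 21 and resting for clusters 4 and 18. Over all cells outside the class, 180 of 14007 genes passed between tdT+ and tdT− (1.29%), 66 higher (0.471%) and 114 lower (0.814%) in tdT+ cells, again without a member. Fgf18 read 26.2 and 23.6 CPM in the control and 21.2 and 27.2 CPM in the p21 tdT+ pseudobulks, against 33.7 and 30.01 CPM and 30.7 and 31.7 CPM in the tdT− ones. Every tdT+ value was below every tdT− value, with a log2 difference of −0.36 (interval −0.61 to −0.10, adjusted p = 0.232). Fgfr2 differed by 0.23 (adjusted p = 0.269) and Fgfr4 by −0.56 (adjusted p = 0.393). Tenocyte-like cells, the highest class for Fgf18, made up 1.79 and 2.30% of the tdT+ and 5.59 and 14.51% of the tdT− cells of this set, and perichondrium-like cells 30.7 and 19.4% against 12.4 and 6.14%. Without the tenocyte-like and muscle-like clusters the log2 differences were −0.07 for Fgf18, −0.36 for Fgfr4 and 0.09 for Fgfr2, and 26 genes passed.

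In the same comparison 4 listed genes passed, 1 higher and 3 lower in tdT+ cells, of 77 tested. Spry2, a Sprouty inhibitor induced by FGF signalling, read 51.3 and 49.3 CPM in control and 55.5 and 62.2 CPM in p21 tdT+ pseudobulks, against 86.9 and 88.1 CPM and 121 and 96.7 CPM in the tdT− ones. The tdT+ values all lay below the tdT− values (log2 difference −0.83, SE 0.091, adjusted p = 0.0026), and Spry2 passed under every alternative run, at −0.68 without the tenocyte-like and muscle-like clusters (adjusted p = 0.041). That alternative left the unequal shares of perichondrium-like cells in place. In these sums a lower level in each cell and a different make-up of cell types cannot be told apart. Sulf1, which trims sulfate groups from heparan sulfate, was lower (−0.46, adjusted p = 0.028), as was Fgf14, another intracellular homologous factor (−1.29, adjusted p = 0.042), and the syndecan Sdc2 was higher (0.48, adjusted p = 0.040). The last 3 did not pass without the tenocyte-like and muscle-like clusters (adjusted p 0.070, 0.636 and 0.232), and Sdc2 did not with the replicate block (adjusted p = 0.055). Fgf14 did not pass with no covariate (adjusted p = 0.163). Leaving out either control tdT+ pseudobulk, p21 tdT+ 1 or p21 tdT− 2 also ended each of these 3 calls, with an adjusted p of 0.084 to 0.152 for Fgf14, 0.054 to 0.108 for Sulf1 and 0.100 to 0.132 for Sdc2. Leaving out p21 tdT− 1 ended those of Sulf1 and Sdc2 (both 0.0504), and leaving out a control tdT− pseudobulk that of Sdc2 (0.0795 and 0.0867). The next listed gene was Sulf2 (−0.35, adjusted p = 0.094).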

How the data were processed

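The 4 10x Genomics 3′ v3.1 libraries were made from sorted E14.5 hindlimb cells. The deposited values were raw UMI counts per gene and barcode, which the authors made with Cell Ranger 7.2.0 against GRCm38 with tdTomato, CreERT2 and WPRE sequences added; whether intronic reads were counted is not given in the sources used here. The study names CellBender and DoubletFinder, and whether the deposited counts had passed through them is not given in the sources used here.

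Barcodes with at least 1000 UMIs, at least 500 genes and at most 10% mitochondrial UMIs were kept. Sex was called from at least 2 sex-linked UMIs, 80% or more of 1 side, and gave condition through the sex and condition pairs of the study's methods. No sex could be called for 178 to 2747 barcodes a library, and 40 to 132 held both sexes and were dropped with the 5% highest Scrublet scores. Cells were clustered with scanpy 1.11.5 (2000 variable genes, 30 components, 15 neighbours, Leiden resolution 1), leaving out the 91 FGF genes and 957 cell-cycle genes, and named from marker lists. Counts were summed per class, library and condition (10 cells or more) and tested with edgeR 4.0.16 (quasi-likelihood, TMM scaling, sorted fraction or condition as covariate, Benjamini-Hochberg adjusted p of 0.05, limma 3.58.1 and DESeq2 1.42.0 as alternatives). On simulated data for the chondrocyte comparison, over 11872 genes, 67.7% of genes changed by 1 log2 unit and 94.1% of those changed by 2 were recovered, and 7.95% of calls were false. The simulated pseudobulks were drawn independently, while the real tdT+ and tdT− pseudobulks share embryo pools. Recovery may therefore be lower, and false calls more frequent, in the real data. Levels over classes used 1 scaling over all classes, so they differ from values within a comparison.

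The p21 and control cells of a library share 1 reaction, and their deviations from the group means correlated at −0.108 to −0.00543 in chondrocyte-like cells, 0.0380 to 0.224 over cells outside that class and −0.0474 to 0.344 over all cells, so not every pair passed 0.1. In chondrocyte-like cells the tdT+ and tdT− cells of an embryo pool correlated at 0.197 to 0.490, so summing the pools was run as an alternative. The methods list a single p21 female, so 1 of the p21 pools may be 1 embryo. The 6 genes, the other lists and the rule for named genes (members, genes past the threshold and the 5 lowest p-values of the lists, and for each member the 5 genes most like it) were chosen with earlier results of these data known. 1 gene that this rule would name is not reported here. Hypertrophic-like cells were not tested, having fewer than 3 pseudobulks a condition. Shares were tested by 2-sided exact permutation. Analyses ran in Python 3.11.15 and R 4.3.3.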

Additional observations from a re-analysis of the deposited data

Results flagged for a closer look

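In resting-like cells, 4 values stood apart from the rest of their group of 4. Fgf9 read 3.65 CPM in the tdT+ 2 control and 1.00 CPM in the tdT+ 2 p21 pseudobulk, with no UMI in the other 3 of each group, so both rest on very few UMIs. Fgfr2 read 386.5 CPM in the tdT+ 2 control, where the lowest control read 239.9 CPM, and 311 CPM in the tdT+ 1 p21 pseudobulk, where the lowest read 225 CPM. Of 66 groups examined, these 4 were flagged, and chance flags about 1 group in 20.

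The barcodes under 1000 UMIs, which entered no comparison, also held UMIs of every member. Summed over them, the levels were 53.4 CPM for Fgfr1, 106 for Fgfr2, 29.1 for Fgfr3, 7.57 for Fgfr4, 2.48 for Fgf9 and 6.21 for Fgf18, against 138, 280.0, 61.1, 16.3, 7.61 and 20.5 CPM in the kept cells. The part of UMIs outside kept cells in low readings, such as those of Fgf9 in cartilage, was not tested.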

How the results depend on the processing

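No member passed the threshold in any p21 comparison under any alternative, and the single member to pass elsewhere was Fgfr2, higher in tdT+ cells outside the chondrocyte class with no filter on low counts (adjusted p = 0.049, so 1 member in place of 0). Counts of genes passing moved far more. With no filter on low counts they were 467 over all cells, 286 outside the chondrocyte class, 415 in chondrocyte-like, 304 in proliferative-like and 71 in resting-like cells, 25 for the interaction, and 900 and 245 for the fraction outside and inside cartilage, while DESeq2 gave 54, 12, 116, 70, 9, 1, 304 and 14. Perichondrium-like cells had 1 gene, and 0 with no filter, at resolution 0.5 or 2, with sex as a covariate, with no Scrublet removal, no covariate, stricter sex calls or summed pools. Stricter sex calls gave 0 over all cells, 0 outside the chondrocyte class, 3 in chondrocyte-like, 2 in proliferative-like and 1 in resting-like cells, and summed pools 0, 0 and 3 for the first 3 and 1 in resting-like cells. With the library as replicate block 1 gene passed over all cells and 21 in chondrocyte-like cells, and with condition and collection as replicate block 4 passed for the fraction in chondrocyte-like cells. The block changed no call of a member. Sex as a covariate gave 3 outside the chondrocyte class, 81 in chondrocyte-like, 41 in proliferative-like and 6 in resting-like cells. Limma-voom gave 73, 43 and 7 in the last 3. No covariate gave 0 over all cells, 0 outside the chondrocyte class and 1 in resting-like cells. Resolution 0.5 gave 20 in chondrocyte-like cells, and resolution 2 gave 39 in proliferative-like and 6 in resting-like cells. Without the tenocyte-like and muscle-like clusters, an alternative chosen after seeing the data, 0 genes passed outside the chondrocyte class for p21 and 26 for the fraction. The causes were not tested, apart from the larger number of genes tested without the filter.

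Small differences changed sign. Resolution 0.5 gave, outside the chondrocyte class, 0.071 for Fgf18 and −0.15 for Fgfr3, −0.042 for Fgfr4 in chondrocyte-like cells, 0.038 for Fgfr1 and 0.0041 for Fgfr3 in perichondrium-like cells and 0.037 for Fgfr1 in resting-like cells. Resolution 2 gave 0.020 for Fgf18 and 0.0047 for Fgfr2 in chondrocyte-like, −0.34 for Fgf18, 0.22 for Fgfr3 and −0.18 for Gpc5 in perichondrium-like, 0.13 for Fgf18 in proliferative-like, and −0.26 for Fgfr3 and 0.27 for Flrt2 in resting-like cells. Stricter sex calls gave −0.059 for Fgf18 and −0.0065 for Fgfr2 over all cells, −0.051 for Fgf18 in perichondrium-like and −0.043 for Fgfr2 in proliferative-like cells. With no Scrublet removal the values were 0.019 for Fgfr1 and −0.12 for Gpc5 in perichondrium-like and −0.042 for Fgfr2 in proliferative-like cells. Without the tenocyte-like and muscle-like clusters Fgf18 was 0.23 and Fgfr4 −0.069 outside the chondrocyte class, Fgfr4 −0.040 over all cells, and the fraction difference of Fgfr3 −0.18, or −0.0018 with no covariate. No covariate gave 0.026 for Fgfr1 in perichondrium-like cells, summed pools 0.035 for Fgfr2 in chondrocyte-like cells and no filter 0.0085 for the interaction of Fgfr1. Over all cells Col2a1 was −0.0039 with sex, −0.0073 with the block, −0.0060 with no Scrublet removal, −0.061 with no covariate and −0.073 with summed pools.

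Leaving out 1 pseudobulk at a time, the counts ranged from 0 to 1 for the interaction, 0 to 6 over all cells, 0 to 3 outside the chondrocyte class, 1 (without p21 tdT+ 2) to 40 in chondrocyte-like, 2 (without p21 tdT− 2) to 30 in proliferative-like, 0 to 12 in resting-like and 0 to 5 in perichondrium-like cells, and 70 to 188 and 1 to 8 for the fraction outside and inside cartilage. Values that changed sign ranged, for the interaction, from −0.11 to 0.088 for Fgfr1, −0.18 to 0.0070 for Fgfr2, −0.43 to 0.033 for Fgfr3 and −0.34 to 0.18 for Fgfr4. Over all cells they ranged from −0.028 to 0.32 for Cdkn1a, −0.15 to 0.097 for Col2a1, −0.028 to 0.069 for Fgf18, −0.44 to 0.15 for Fgf9 and −0.096 to 0.17 for Fgfr3. Outside the chondrocyte class the ranges were −0.11 to 0.056 for Fgf18, −0.41 to 0.094 for Fgf9 and −0.0096 to 0.12 for Fgfr1. In chondrocyte-like cells they were −0.057 to 0.52 for Cdkn1a, −0.010 to 0.089 for Col2a1, −0.059 to 0.021 for Fgfr2, −0.074 to 0.12 for Fgfr4 and −0.40 to 0.067 percentage points for the Fgfr4 share. In perichondrium-like cells they were −0.13 to 0.049 for Fgfr1 and −0.49 to 0.27 for Fgfr3, and in proliferative-like cells −0.19 to 0.069 for Fgf18, −0.058 to 0.086 for Fgfr2, −0.062 to 0.16 for Fgfr3 and −0.20 to 0.078 for Fgfr4. For the fraction they were −0.073 to 0.40 for Fgf9 and −0.21 to 0.30 for Fgfr3 outside the chondrocyte class, and −0.13 to 0.086 for Fgf18, −0.0045 to 0.076 for Fgfr1 and −0.16 to 0.043 for Fgfr4 in chondrocyte-like cells.

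Proliferative-like cells at resolution 0.5 could not be run. Depth limits Fgf9 in cartilage and Fgfr4 in perichondrium-like cells to a handful of UMIs a library, 2 embryo pools a condition limit every p21 comparison, and in each library sex and condition cannot be told apart.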
